A study of Mus musculus with 14 samples.

Results

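Oxidative phosphorylation genes encode the subunits of the 5 protein complexes by which mitochondria make ATP. They were taken by symbol from the genes listed in both deposited tables: the Ndufa, Ndufb, Ndufc, Ndufs and Ndufv genes with a number, Sdha to Sdhd, all Uqcr genes, the numbered Cox4 to Cox8 genes, all Atp5 genes, and the mitochondrial mt-Nd, mt-Co, mt-Cytb and mt-Atp genes. The rule gave 94 of 51211 symbols, of which 81 were nuclear and 13 mitochondrial, and 8 further symbols that contain -ps were left out as pseudogenes. Whole olfactory epithelium of 14 pups was sequenced at P5, in 2 experiments of which one silences olfactory sensory neurons (OSNs) and the other exposes pups to an odor. The first compared 3 Kir2.1 mice (OMP-IRES-tTA with tetO-Kir2.1-IRES-tauLacZ) with 3 control mice that are OMP-IRES-tTA het, and the second compared 4 wild type mice given PEA (2-phenylethylamine) from P0 to P5 with 4 wild type mice that were not. Records name C57BL/6 for all mice, whereas the study's methods name CD-1 for the PEA experiment. The Kir2.1 records also carry the label Kir2.1-off. The Omp locus drives the transgene in neurons that express OMP, which include mature OSNs and vomeronasal neurons, so the Kir2.1 channel, which hyperpolarizes neurons, can be made by a subset of the cells whose RNA was measured. The values are normalized counts per gene, which the authors computed for each experiment alone, and no test was made across the experiments.

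Electrons enter the respiratory chain at complex I (NADH dehydrogenase) and complex II (succinate dehydrogenase), pass through complex III (the cytochrome bc1 complex) to complex IV (cytochrome c oxidase), and the proton gradient that complexes I, III and IV build drives complex V (ATP synthase). The mitochondrial genome encodes core subunits of all but complex II, and nuclear genes encode the rest. OSNs are neurons with a high demand for ATP in dendritic knobs and axons, but every cell of the epithelium has a respiratory chain.

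Nearly all of these genes were well above the filter. Of the 81 nuclear genes, 77 averaged 10 normalized counts or more in each experiment and were tested, as were all 13 mitochondrial genes. The 4 nuclear genes under the filter were Cox6a2, Cox6c2, Cox7b2 and Cox8c, whose highest value in any mouse was 5.83. Cox6c2 is annotated as a processed pseudogene, but its symbol lacks -ps, so the rule counts it among the 81. Cox6a2, the subunit isoform of heart and skeletal muscle, was listed at 0 in all 8 mice of the PEA experiment and at no more than 2.08 in the Kir2.1 experiment. Cox8c, a testis isoform, was listed at 0 in all 14 mice. Nuclear genes together held between 1.15% and 1.25% of the normalized counts of a mouse in the Kir2.1 experiment and between 0.663% and 0.852% in the PEA experiment.

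Levels between genes were compared per kilobase of transcript, as the mean of the control mice of 1 experiment. In the Kir2.1 experiment, the levels of nuclear genes ran from 294 per kb for Cox7a1 to 20700 per kb for Atp5b, the catalytic beta subunit of complex V, with a median of 5030. The median was 3120 per kb for complex I, 3170 for complex II, 4590 for complex III, 8200 for complex IV and 6120 for complex V. In the PEA experiment the order was similar, with medians of 613, 883, 741, 1500 and 1940 per kb for complexes I to V, and Atp5b was again highest at 5700 per kb. Across the 77 genes, control levels per kb of the experiments had a Spearman correlation of 0.73, where the points share transcript lengths and differ in library kit.

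Where a subunit has isoforms, the ubiquitous one was far above the muscle or testis one. Cox8a stood at 15500 ± 454 per kb and Cox8b at 665 ± 65.6 per kb in the Kir2.1 control mice (mean ± SD, n = 3), and at 2600 ± 751 and 54.8 ± 13.2 per kb in the PEA control mice (n = 4). Cox7a2 and Cox7a1 stood at 8200 ± 556 and 294 ± 25.7 per kb in the former and at 2360 ± 237 and 92 ± 21.6 per kb in the latter. Cox6b1 and Cox6b2 stood at 8950 ± 326 and 502 ± 27.1 per kb, and at 2650 ± 138 and 24.8 ± 13.9 per kb. In each of these pairs the isoform ranges lay far apart. Of the 3 genes for the c subunit that forms the rotor ring of complex V and have the same mature protein, Atp5g3 was at 12000 ± 199 per kb and Atp5g2 at 4880 ± 337 per kb in the Kir2.1 control mice, and at 1940 ± 358 and 1380 ± 532 per kb in the PEA control mice, where they overlap. The level of Atp5g1 (670 ± 15.8 and 95 ± 25.5 per kb) rests on a reference transcript of 4715 bases and depends on that choice. That of Atp5g2 can depend on how reads were divided with Gm10175, which holds 615 of its 1641 31-mers. Gm10175 was listed at 1040 to 1690 in the Kir2.1 experiment and at 0 to 493 in the PEA experiment.

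Libraries differed in ways that touch these genes. Kcnj2, which encodes Kir2.1, was between 17930 and 24190 in the Kir2.1 mice and between 985.9 and 1274 in their control mice. Sums over 9 mature OSN markers (Omp among them) lay between 93485 and 106719 in the Kir2.1 mice and between 137775 and 150256 in their control mice, and between 31113 and 36271 over all mice of the PEA experiment. In the Kir2.1 comparison all 9 had a log2 fold change below 0, from -1.75 for Kirrel2 to -0.34 for Cnga2. The study counts Kirrel2 (mean 13800 in control and 4130 in Kir2.1 mice) among genes known to depend on neural activity. In bulk samples, fewer cells of a type and less RNA per cell cannot be told apart. Sums over 5 erythroid markers were also higher in the Kir2.1 mice (20242 to 33607, against 11005 to 19896). Their median log2 fold change was 0.88, with all 5 at an unadjusted p under 0.05. Of the cartilage and bone markers 4 of 4 were above 0 (median 0.49, 2 at that p), but their sums overlapped (5326 to 6635, against 3096 to 9409). All markers of horizontal basal cells (4), Bowman's glands (4), respiratory ciliated cells (6) and leukocytes (6) were above 0 as well. Of immature OSN markers 3 of 6 were, and of sustentacular markers 1 of 6. In the PEA experiment the sum over 4 horizontal basal cell markers was 989 to 1162 in exposed and 739 to 908 in control mice, and that over 4 cartilage and bone markers was 713 to 877 and 1027 to 2504. The basal cell markers differed among themselves, with log2 fold changes of 0.63 (Krt5), 0.62 (Krt14), 0.25 (Icam1) and 0.00 (Trp63). Of the 5 brown fat markers, Ucp1 had group means of no more than 5.9 in either experiment, while Cidea (750 in control and 574 in Kir2.1 mice) and Ppargc1a (698 and 499) stood at higher levels than Ucp1. The part of these cell types in the values below was not tested. Vomeronasal receptor genes were high in Kir2.1 control mouse 1 (mean log2 value 6.06, against 2.42 to 2.51 in the others) and in PEA control mice 1 to 3 and PEA exposed mouse 1 (3.92 to 5.76, against 1.43 to 1.71). In the PEA experiment, control mouse 4 had the lowest value of all 8 mice for 45 of the 77 nuclear genes, and its median deviation from a gene's mean was -0.31 on the log2 scale. PEA exposed mouse 1 was also low, at -0.13, while the other 6 mice of that experiment were between -0.03 and 0.18. Calls in the PEA experiment are therefore also given without these mice, which was chosen after seeing the data. Every control mouse then left was among those high in vomeronasal receptor genes, and every exposed mouse among those low. Exposure and vomeronasal receptor level cannot be told apart in that subset.

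**Figure D1:**
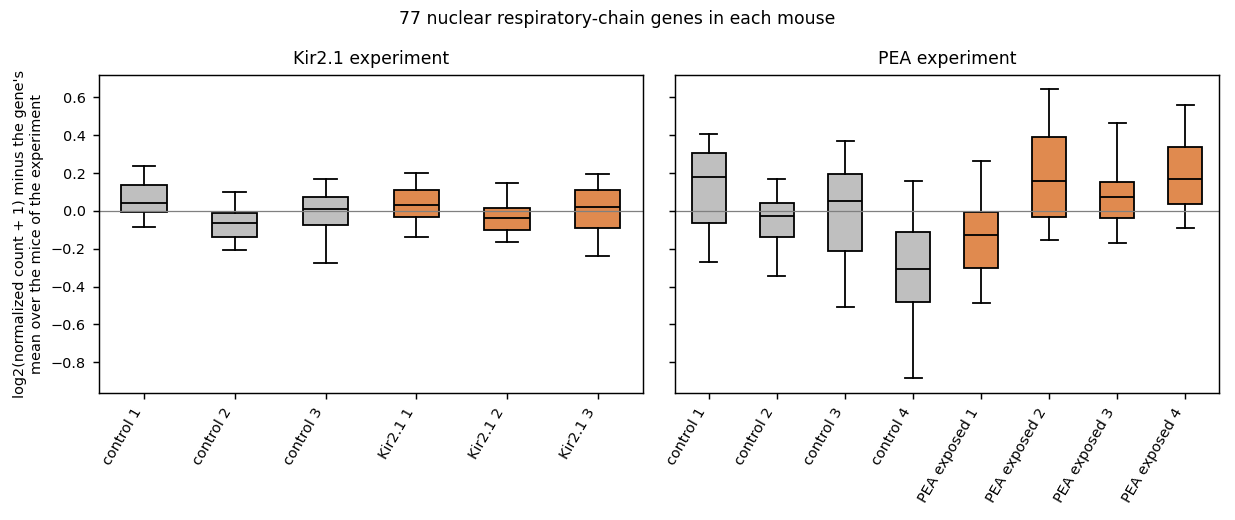
Deviation of the 77 tested nuclear genes in each mouse, as log2(normalized count + 1) minus the gene's mean over the mice of that experiment (vertical axis). Boxes give the quartiles and median, whiskers the 5th and 95th percentiles, grey boxes are control mice and orange boxes Kir2.1 or PEA exposed mice. In the PEA experiment control mouse 4 lies lowest, with a median of -0.31, followed by PEA exposed mouse 1 at -0.13.

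The Kir2.1 comparison addressed whether gene expression differs when spontaneous activity of OSNs is suppressed. None of the 77 nuclear genes passed an adjusted p of 0.05 (limma on log2(normalized count + 1), Benjamini-Hochberg adjustment over 19807 genes), where 0.353% of all genes did. Nuclear genes were spread closely around no difference, with log2 fold changes from -0.24 to 0.26 and a median of 0.00, beside 0.01 for all genes tested. Their 95% intervals were narrow. The median half-width was 0.22 log2 units, and for 72 of the 77 genes the whole interval lay between -0.5 and 0.5. An unadjusted p under 0.05 was reached by 2 genes that were higher in Kir2.1 mice, where 4.93% of all genes were, and by 2 that were lower, where 6.2% of all genes were. A log2 fold change above 0 was seen for 42 of the 77 genes, and for 26 after each mouse was centred on its own median, so no direction of the group can be given.

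Groups did not overlap for 6 nuclear genes. There were 3 genes with every Kir2.1 mouse above every control mouse, where 7.26% of all genes were so placed, and 3 with every Kir2.1 mouse below, where 9.04% were. Ndufb5, an accessory subunit of complex I, was at 2649, 2489 and 2532 in the control mice and at 2963, 2967 and 2907 in the Kir2.1 mice. The Kir2.1 mice lay close together and above the control mice, with a log2 fold change of 0.20 (SE 0.06, limma adjusted p = 0.287 after Benjamini-Hochberg). Sdhb, the iron-sulfur subunit of complex II, was at 5931, 5380 and 5923 in the control mice and at 6536, 6114 and 6959 in the Kir2.1 mice. Its log2 fold change was 0.19 (SE 0.08, limma adjusted p = 0.435 after Benjamini-Hochberg). Cox8b is the other gene with higher values, and is described with its isoform below.

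On the other side, Cox5a, a nuclear subunit of complex IV, was at 4229, 4073 and 3823 in the control mice and at 3704, 3473 and 3504 in the Kir2.1 mice. Every Kir2.1 mouse was lower, by a log2 fold change of -0.18 (SE 0.07, limma adjusted p = 0.388 after Benjamini-Hochberg). Ndufv3, an accessory subunit beside the NADH-binding site of complex I, was at 4908, 4308 and 4390 in the control mice and at 4057, 4106 and 3834 in the Kir2.1 mice (fold change of -0.18 on the log2 scale, SE 0.07, limma adjusted p = 0.437 after Benjamini-Hochberg adjustment). Ndufs1, the largest iron-sulfur subunit of complex I, was at 4141, 3746 and 3713 in the control mice and at 3642, 3493 and 3465 in the Kir2.1 mice. Its log2 fold change was -0.13 (SE 0.07, 95% interval -0.29 to 0.04, limma adjusted p = 0.58 after Benjamini-Hochberg). For Sdhb, Cox8b, Cox5a, Ndufv3 and Ndufs1 the gap between the groups was smaller than the range of the control mice, and for Ndufb5 it was larger. In the PEA experiment, which shares no mice with this one, Ndufv3 had a log2 fold change of 0.40 and Ndufb5 of -0.12.

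Of 10 nuclear subunits listed for description, 2 from each complex, Sdhb, Cox5a and Ndufs1 are given above. Ndufs1 and the other 7 had intervals that include 0 in the Kir2.1 comparison. Ndufv1, the NADH-binding subunit of complex I, had a log2 fold change of -0.03 with a 95% interval from -0.32 to 0.26. For Sdha, the flavoprotein of complex II, the value was -0.12 (interval -0.33 to 0.09). Uqcrc1, a core protein of complex III, had -0.13 (interval -0.30 to 0.04), and Uqcrfs1, its Rieske iron-sulfur protein, had -0.01 (interval -0.15 to 0.13). Uqcrfs1 was the steadiest of the 77 genes, at 4035, 3967 and 3981 in the control mice, a coefficient of variation of 0.903%. Cox5b of complex IV had a log2 fold change of -0.06 (interval -0.36 to 0.23). The alpha and beta subunits of complex V, Atp5a1 and Atp5b, had -0.07 (interval -0.27 to 0.12) and -0.09 (interval -0.27 to 0.09). By complex, the median log2 fold change was 0.00 for complex I (35 genes), -0.05 for complex II (4 genes), 0.00 for complex III (8 genes), 0.02 for complex IV (13 genes) and 0.03 for complex V (17 genes).

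The 13 mitochondrial genes were all a little higher on average in the Kir2.1 mice, and none passed the test. Their log2 fold changes ran from 0.07 for mt-Nd5 to 0.24 for mt-Atp8, with a lowest limma adjusted p of 0.775 after Benjamini-Hochberg adjustment, and no gene reached an unadjusted p under 0.05. After an adjustment of each mouse for GC content, chosen after seeing the data, their median went from 0.14 to 0.27. Then mt-Nd2 (0.27) and mt-Nd4 (0.29) had an unadjusted p under 0.05, where 5.44% of all genes were higher. Their limma adjusted p was 0.289 and 0.407 after Benjamini-Hochberg adjustment. Before it, 367 of the 3924 tested genes of lowest GC content (28.3% to 43.7%) fell at that unadjusted p, and 142 rose. The part of such genes in the shift of the mitochondrial median was not tested. Together the 13 mitochondrial genes held 3.55%, 3.76% and 2.51% of the normalized counts in Kir2.1 mice 1 to 3. In control mice 1 to 3 they held 3.22%, 2.85% and 2.81%. Kir2.1 mouse 3 was thus below all control mice and Kir2.1 mice 1 and 2 above them, so that the groups overlapped for all 13 genes. Kir2.1 mouse 3 and control mouse 3 had low Xist, a marker of female mice (22.1 and 3.02, against 12000 to 14300 in the others). Each had the lowest share of its group. With a covariate for Xist all 13 log2 fold changes stayed above 0. For mt-Co1, the catalytic subunit of complex IV, the values were 277200, 251700 and 264200 in the control mice and 309600, 319300 and 236800 in the Kir2.1 mice (fold change of 0.11 on the log2 scale, SE 0.13). For mt-Nd3, a complex I subunit, they were 9128, 8169 and 4663 in the control mice and 10620, 12580 and 4088 in the Kir2.1 mice (fold change of 0.22 on the log2 scale, SE 0.44). After quantile normalization, which keeps all mice, 11 of the 13 genes were higher. Without Kir2.1 mouse 2 only 7 of the 13 were, so the direction shared by all 13 did not hold without that mouse. The remaining mitochondrial genes were mt-Nd1 (0.12), mt-Nd2 (0.13), mt-Nd4 (0.14), mt-Nd4l (0.17), mt-Nd6 (0.15), mt-Cytb (0.11), mt-Co2 (0.10), mt-Co3 (0.18) and mt-Atp6 (0.15), all given as log2 fold changes with SE between 0.12 and 0.31.

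**Figure D2:**
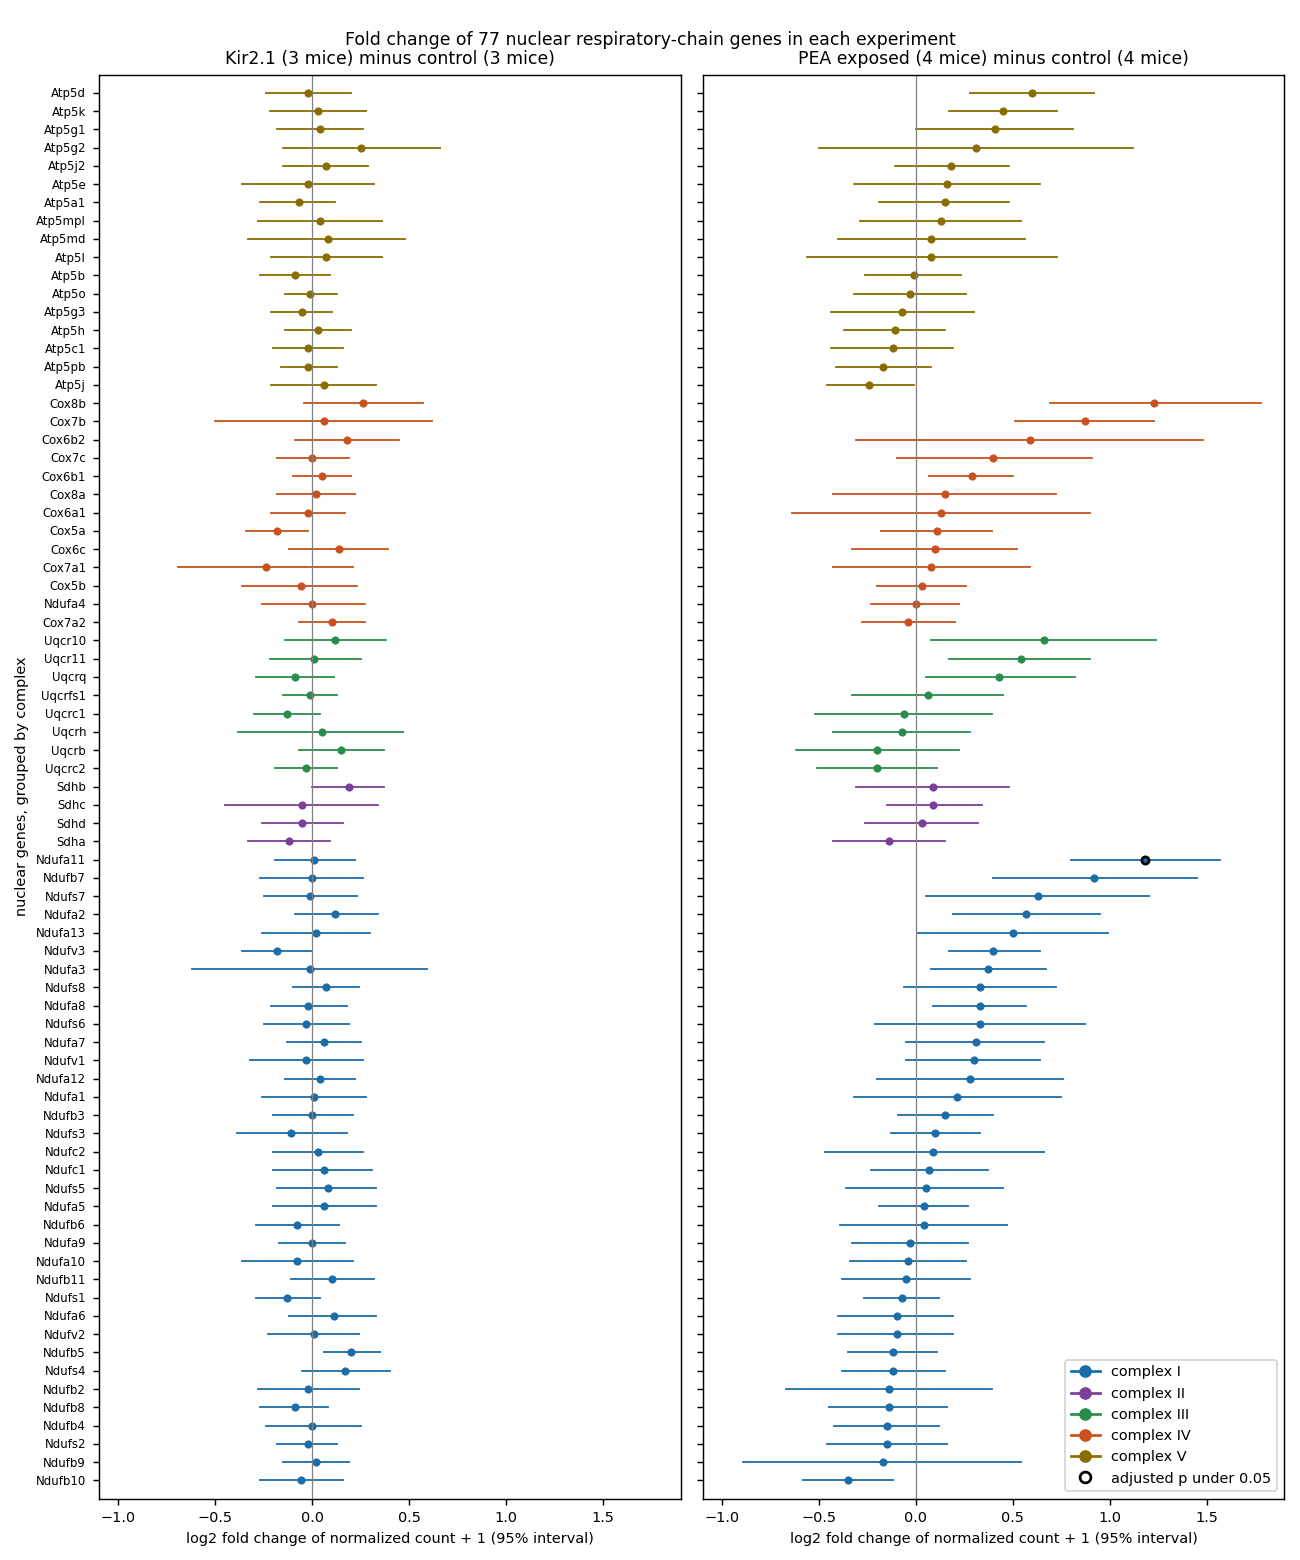
Log2 fold change of normalized count + 1 (horizontal axis) of the 77 nuclear genes (vertical axis, grouped and coloured by complex), with 95% intervals from limma. Left, Kir2.1 minus control (3 mice each). Right, PEA exposed minus control (4 mice each). All Kir2.1 values lie between -0.24 and 0.26, while PEA values reach 1.23, and Ndufa11 is the gene with an adjusted p under 0.05.

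The PEA comparison addressed whether odor exposure after birth changes expression in the epithelium. One of the 77 nuclear genes, Ndufa11, rose with an adjusted p under 0.05 (limma, Benjamini-Hochberg adjustment over 17322 genes), where 0.179% of all genes passed. Ndufa11 encodes an accessory subunit in the membrane arm of complex I. It was at 139, 159, 129 and 158 in the control mice and at 249, 446, 347 and 317 in the PEA exposed mice. Every exposed mouse was above every control mouse, and exposed mouse 2 was highest. The log2 fold change was 1.18 (SE 0.17, 95% interval 0.80 to 1.57, limma adjusted p = 0.0284 with Benjamini-Hochberg adjustment). In the Kir2.1 experiment the gene was at 3234, 2674 and 3095 in the control mice and at 3076, 3020 and 2969 in the Kir2.1 mice, which differed by 0.01 on the log2 scale (95% interval -0.19 to 0.22). Of the 1131 31-mers in its reference transcripts 105 occur in Ndufa11b, which was at no more than 1.13 in the PEA experiment, so few reads were assigned to that paralog.

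The call for Ndufa11 was near the threshold. Without control mouse 1, 2 or 3 the limma adjusted p (Benjamini-Hochberg) was 0.0669, 0.0644 and 0.0902, and without exposed mouse 2, 3 or 4 it was 0.0704, 0.116 and 0.0992, with log2 fold changes between 1.04 and 1.23. Without control mouse 4 or exposed mouse 1 it was 0.0453 and 0.0140, and without both of those mice it was 0.0145, with a log2 fold change of 1.36. Without both, exposure and vomeronasal receptor level cannot be told apart. With the vomeronasal receptor level as a covariate the log2 fold change was 1.06 and the adjusted p 0.0946 (limma with Benjamini-Hochberg adjustment). The size of the difference therefore held, and its side of the threshold did not.

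Ndufa11 lies on chromosome 17 of GRCm38, from 56717767 to 56722141 on the plus strand. Its promoter window in RefSeq (GRCm38.p6, 250 bases before to 50 after the start) is shown because this is the member that was called, with the letters of the NRF1 core motif and their overlap in capitals. NRF1 is a transcription factor known to bind promoters of many respiratory genes.
Ndufa11, chr17:56717512-56717811, plus strand: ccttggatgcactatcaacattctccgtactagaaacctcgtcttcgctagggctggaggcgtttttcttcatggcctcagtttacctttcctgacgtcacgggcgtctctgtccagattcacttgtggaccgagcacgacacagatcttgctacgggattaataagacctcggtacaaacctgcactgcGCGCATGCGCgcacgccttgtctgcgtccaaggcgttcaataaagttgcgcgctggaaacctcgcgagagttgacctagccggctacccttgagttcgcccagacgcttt
The motif GCATGCGC was searched on both strands, and here its matches on the opposite strands overlap. It occurred in 10 of the 67 nuclear members with a promoter in the table (14.9%) and in 2.8% of all 27025 promoters. The ETS motif CCGGAAG, letters bound by the factor GABP among others, occurred in 16 of the 67 (23.9%) and in 9.1% of all promoters, and is not in the window shown. These are matches of letters and not measured binding.

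Beyond Ndufa11, more nuclear genes were higher in PEA exposed mice than lower, at thresholds that do not correct for the number of genes. An unadjusted p under 0.05 was reached by 16 higher genes (20.8% of the 77, where 8.93% of all genes were) and by 2 lower genes, where 6.04% of all genes were. With the vomeronasal covariate there were 12 higher genes (15.6%, where 6.77% of all genes were) and 2 lower, where 4.83% were. Groups did not overlap for 10 higher genes, where 5.46% of all genes were so placed, and for 2 lower genes, where 3.86% were. The 16, named after their values were seen, were Ndufa2, Ndufa3, Ndufa8, Ndufa11, Ndufa13, Ndufb7, Ndufs7 and Ndufv3 of complex I, Uqcr10, Uqcr11 and Uqcrq of complex III, Cox6b1, Cox7b and Cox8b of complex IV, and Atp5d and Atp5k of complex V. Without control mouse 4 and exposed mouse 1 there were 22 higher genes (28.6%, where 9.3% of all genes were) and 6 lower genes, where 7.55% of all genes were. Cox7b and Uqcr10 then also passed the adjusted threshold. In that subset the vomeronasal receptor level (mean log2 value) was 3.92 to 5.76 in control and 1.43 to 1.71 in exposed mice. It cannot be told apart from exposure there.

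Cox7b, a small accessory subunit of complex IV encoded on the X chromosome, was at 1712, 1328, 1467 and 1537 in the control mice and at 2027, 2730, 3593 and 2870 in the exposed mice. Each exposed mouse was above each control mouse, with a log2 fold change of 0.87 (SE 0.16, limma adjusted p = 0.0694 after Benjamini-Hochberg). Without exposed mouse 1 the limma adjusted p (Benjamini-Hochberg) was 0.0229, and without any other single mouse it was between 0.0827 and 0.191. With the vomeronasal covariate the log2 fold change was 0.76 and the limma adjusted p (Benjamini-Hochberg) 0.202. With a covariate for Xist, which marks female mice (2 of 4 control and 3 of 4 exposed mice had high Xist), the limma estimate was 0.92 with a Benjamini-Hochberg adjusted p of 0.0962. Ndufb7, an accessory subunit of complex I, was at 220, 193, 164 and 131 in the control mice and at 230, 497, 306 and 342 in the exposed mice. Exposed mouse 1 was barely above control mouse 1 and exposed mouse 2 far above the rest (fold change of 0.92 on the log2 scale, SE 0.23, limma adjusted p = 0.135 after Benjamini-Hochberg adjustment). Atp5d, the delta subunit in the central stalk of complex V, was at 322, 347, 281 and 317 in the control mice and at 387, 609, 454 and 496 in the exposed mice (fold change of 0.60 on the log2 scale, SE 0.14, limma adjusted p = 0.121 with Benjamini-Hochberg adjustment).

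Cox8b, the heart and muscle isoform of a small complex IV subunit, was low but separated the groups in both experiments. It was at 12.7, 21.4, 23 and 21.8 in the PEA control mice and at 40.5, 47.3, 47.7 and 51.5 in the exposed mice. The log2 fold change was 1.23 (SE 0.24, limma adjusted p = 0.0850 after Benjamini-Hochberg). In the Kir2.1 experiment it was at 224, 228 and 266 in the control mice and at 316, 278 and 268 in the Kir2.1 mice, where Kir2.1 mouse 3 was next to control mouse 3 (fold change of 0.26 on the log2 scale, SE 0.13, limma adjusted p = 0.528 after Benjamini-Hochberg adjustment). Another muscle isoform and the muscle markers were looked at beside it. Cox7a1 had log2 fold changes of 0.08 (95% interval -0.43 to 0.59) in the PEA comparison and -0.24 (interval -0.69 to 0.21) in the Kir2.1 comparison. Of the 11 skeletal muscle markers, 3 passed the filter in the PEA experiment, and 2 of these were higher at an unadjusted p under 0.05. These were Eno3, with means of 493 in control and 605 in exposed mice, and Actn3, with 5.42 and 18.4. The sum over the 11 markers was between 504 and 609 in control mice and between 597 and 775 in exposed mice, and Eno3 makes up most of it. Acta1, Ckm and Myh3 had means of no more than 23.1 in either group. In the Kir2.1 experiment 6 of the 11 passed the filter and none had an unadjusted p under 0.05. Their part in the Cox8b values was not tested.

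Cox8a, the main isoform of that subunit, showed the low values of the mice that stand apart. It was at 1731, 1551, 1623 and 822 in the control mice and at 1071, 1913, 1360 and 1929 in the exposed mice, so that control mouse 4 and exposed mouse 1 were lowest and the groups overlapped (fold change of 0.15 on the log2 scale, 95% interval -0.43 to 0.72). Cox6a1 was likewise at 390 in control mouse 4 and at 507 in exposed mouse 1, against 901 to 1204 in the other 6 mice. Atp5g2 was at 469 and 608 in those mice and at 1051 to 1525 in the rest, while Atp5g1 was highest in them, at 612 and 712 against 326 to 543. Atp5g2 shares 615 of its 1641 31-mers with Gm10175, so its reads could be divided between them. Gm10175 was listed at 0 to 493 in the PEA experiment and at 1040 to 1690 in the Kir2.1 experiment. Atp5g3 had a log2 fold change of -0.07 (95% interval -0.44 to 0.30), Atp5g2 of 0.31 (interval -0.50 to 1.12) and Atp5g1 of 0.41 (interval 0.00 to 0.81). Cox6b1 was at 1680, 1648, 1511 and 1700 in the control mice and at 2161, 1730, 1983 and 2118 in the exposed mice (fold change of 0.29 on the log2 scale, SE 0.10), and Cox6b2 had 0.59 (SE 0.40) at values of 7.48 to 23.5.

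The 2 genes with all exposed mice below all control mice were Ndufb10 and Atp5j. Ndufb10, an accessory subunit of complex I, was at 668, 566, 661 and 553 in the control mice and at 448, 484, 492 and 492 in the exposed mice. The exposed mice lay close together, and the log2 fold change was -0.35 (SE 0.10, limma adjusted p = 0.172 with Benjamini-Hochberg adjustment). Atp5j, coupling factor F6 in the stalk of complex V, was at 1006, 922, 1065 and 1005 in the control mice and at 740, 829, 916 and 912 in the exposed mice (fold change of -0.24 on the log2 scale, SE 0.10, limma adjusted p = 0.310 with Benjamini-Hochberg adjustment). Within complex I, Ndufa11 and Ndufb10 thus lay on opposite sides in the same mice, as did Atp5d and Atp5j within complex V.

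**Figure D3:**
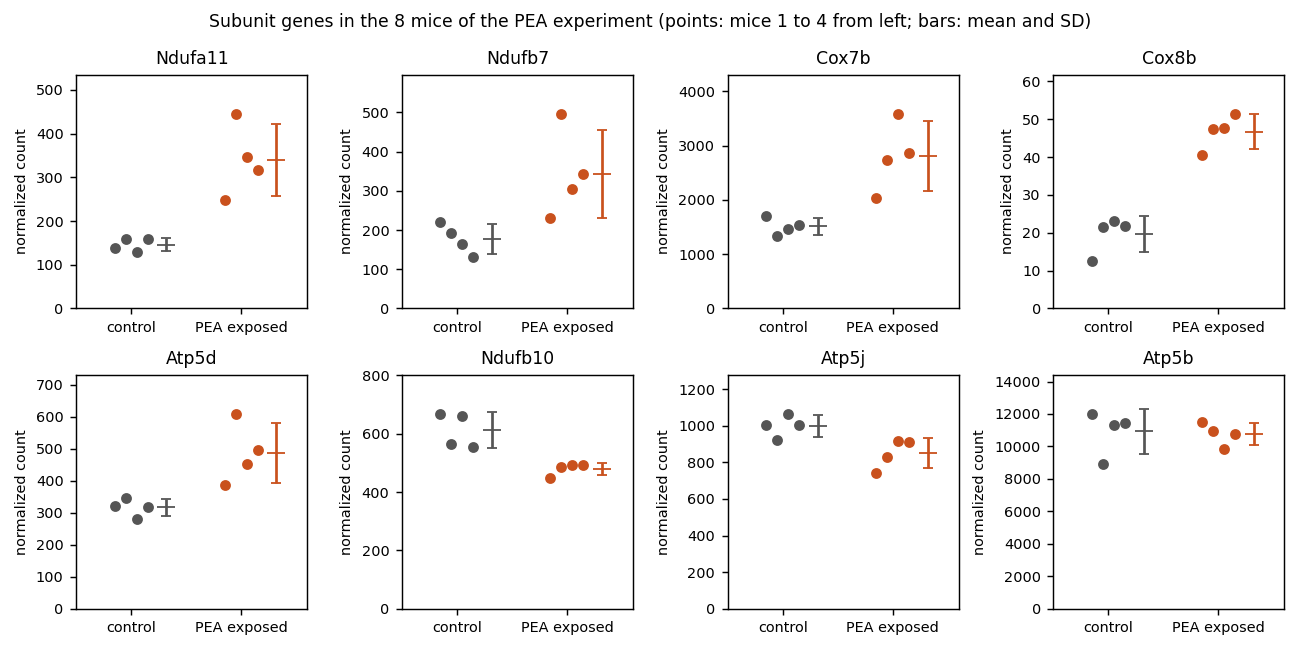
Normalized counts (vertical axis, from 0) of 8 subunit genes in each mouse of the PEA experiment. Points are mice 1 to 4 from left to right in each group, and the bars give mean and SD. Ndufa11, Ndufb7, Cox7b, Cox8b and Atp5d have every exposed mouse above every control mouse, Ndufb10 and Atp5j the reverse, and Atp5b overlaps.

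The same 10 listed nuclear subunits had an unadjusted p above 0.05 in the PEA comparison. Ndufs1 had a log2 fold change of -0.07 (95% interval -0.27 to 0.12) and Ndufv1 of 0.30 (interval -0.05 to 0.64), which was 0.43 (limma adjusted p = 0.133 after Benjamini-Hochberg) without control mouse 4 and exposed mouse 1. Sdha had -0.14 (interval -0.43 to 0.15) and Sdhb 0.09 (interval -0.31 to 0.48). In complex III, Uqcrc1 had -0.06 (interval -0.52 to 0.39) and Uqcrfs1 0.06 (interval -0.33 to 0.45), and in complex IV, Cox5a had 0.11 (interval -0.18 to 0.39) and Cox5b 0.03 (interval -0.20 to 0.26). Atp5a1 had 0.15 (interval -0.19 to 0.48) and Atp5b -0.01 (interval -0.26 to 0.23). Over all 77 genes the median half-width of the interval was 0.34, and 36 genes had an interval within -0.5 and 0.5. The median log2 fold change was 0.09, beside -0.02 for all genes, and it was 0.07, 0.06, 0.00, 0.13 and 0.08 for complexes I to V. Of the 77 genes, 49 had a value above 0, but 34 did without control mouse 4 and 57 without exposed mouse 1. Between the experiments the log2 fold changes of the 77 genes had a Spearman correlation of 0.17, and 44 genes had the same sign.

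The higher values in PEA exposed mice went together with the GC content of the transcripts. For all genes with a known GC content, the Spearman correlation of log2 fold change with GC content was 0.49 in the PEA comparison (17210 genes) and 0.07 in the Kir2.1 comparison (19618 genes), and for the 77 nuclear genes it was 0.38 and -0.06. The 26 nuclear genes with the highest GC content (54.4% to 60.4%) had a median log2 fold change of 0.32 and 10 of the 16 higher genes, while the 26 with the lowest (42% to 49%) had a median of 0.05 and 1 of them. All genes tested, split into 5 bins of GC content, showed the same pattern. In the highest bin (55.3% to 78.3%) 892 of 3442 were higher at an unadjusted p under 0.05, and in the lowest (28.3% to 43.1%) 47 of 3442 were. Genes of one mouse share its library, and the trend was strongest in exposed mouse 2, where deviation and GC content of the 77 genes correlated at 0.53, followed by 0.34 in exposed mouse 4 and 0.18 in exposed mouse 3. In the other 5 mice the correlation was between -0.35 and -0.05.

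A fit in which each mouse was first adjusted for GC content, an alternative chosen after seeing the data, gave 13 higher genes with an unadjusted p under 0.05 (16.9% of the 77, where 5.5% of all genes were). It gave 2 lower genes, where 4.49% of all genes were. Ndufa11, with a GC content of 58.2%, had a log2 fold change of 0.86 (SE 0.13, limma adjusted p = 0.0499 with Benjamini-Hochberg adjustment). For Cox7b, with 42%, the value was 1.01, and for Cox8b, with 55.8%, it was 1.06. Atp5d went from 0.60 to 0.28 and Ndufb7 from 0.92 to 0.58, and these have a GC content of 59.3% and 59.7%. Ndufb10 was at -0.52 and Atp5j at -0.41. After adjustment the median was 0.15 for the 26 genes of highest GC content and 0.12 for the 26 of lowest. Short transcripts also had higher values, with a Spearman correlation of log2 fold change and length of -0.32 over the 77 genes (-0.12 over all genes), and -0.31 (-0.10) in the Kir2.1 comparison.

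**Figure D4:**
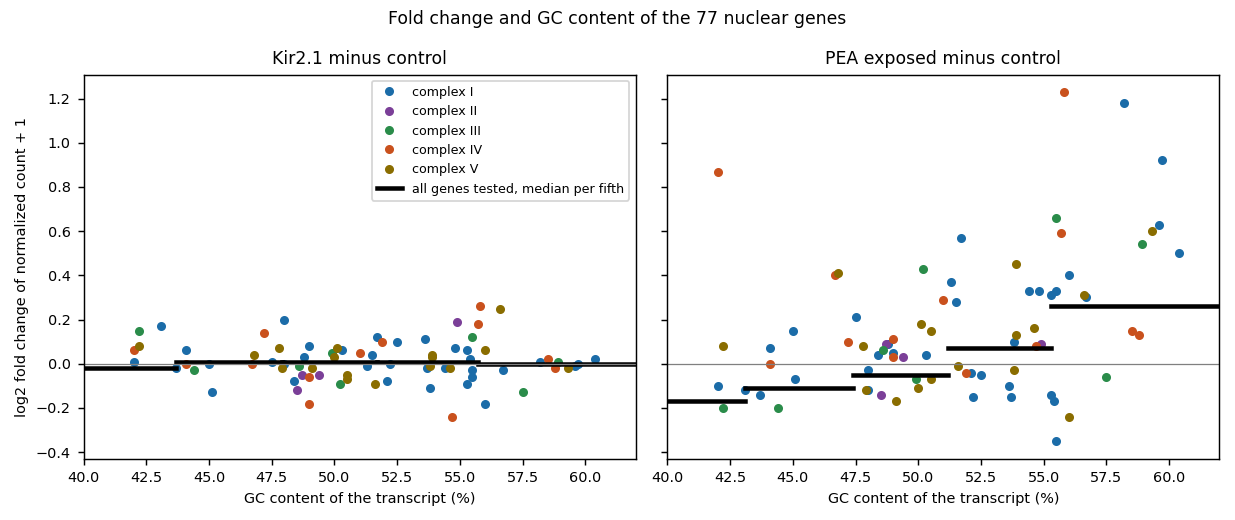
Log2 fold change (vertical axis) against GC content of the reference transcript in percent (horizontal axis) for the 77 nuclear genes, coloured by complex. Black lines give the median of all genes tested in each of 5 equal bins of GC content, drawn over the range shown. In the PEA comparison the medians of all genes rise from -0.17 to 0.26, while in the Kir2.1 comparison they stay between -0.02 and 0.01.

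Several mitochondrial genes have near-identical nuclear copies, which are shown because they decide where reads were counted. A block of such copies lies on chromosome 1 of GRCm38 between 24611535 and 24616197. Gm28661 (chromosome 1, 24614885 to 24615565, minus strand, an unprocessed pseudogene) is identical to the first 681 of the 684 bases of mt-Co2 (chromosome M, 7013 to 7696), and Gm28438 (24612775 to 24613119) differs from the first 345 bases of mt-Nd3 by T3C, counted from the first base of the mitochondrial gene. Capitals mark the bases that differ or are absent from the other sequence.
mt-Co2, bases 625 to 684: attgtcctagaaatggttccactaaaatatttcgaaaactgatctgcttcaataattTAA
Gm28661, last bases: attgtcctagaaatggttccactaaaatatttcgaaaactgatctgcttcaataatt
mt-Nd3, bases 1 to 60: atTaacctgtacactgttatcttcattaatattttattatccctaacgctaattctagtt
Gm28438, bases 1 to 60: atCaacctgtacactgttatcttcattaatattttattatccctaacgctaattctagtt
Of the 31-mers of mt-Co2, 651 of 654 occur in Gm28661. For mt-Co3 753 of 754 occur in Gm28437, for mt-Atp6 648 of 651 in Gm10925, for mt-Nd3 312 of 318 in Gm28438 and for mt-Nd4l 264 of 267 in Gm10222. Shorter stretches are shared by mt-Nd4 (846 of 1348, Gm28439) and mt-Co1 (685 of 1515 with Gm13340 and 449 with Gm29216). Reads from such stretches cannot be assigned to the gene or the copy with certainty.

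In the PEA experiment, counts of these genes were divided between gene and copy in shares that differed among mice. The mt-Co2 gene was listed at 426, 909, 0 and 4060 in the control mice and at 2258, 0, 1765 and 1718 in the exposed mice, while Gm28661 was at 29810 to 37310. Every cell uses this gene, so a 0 can be a failed estimate, and the sum of mt-Co2 and its copies was at 37030, 30730, 34590 and 41370 in the control mice and at 38580, 30330, 32200 and 34740 in the exposed mice. For mt-Co3 the gene held between 13% and 82.5% of the sum, with the highest gene values in control mouse 4 (61280) and exposed mouse 1 (60720) against 7220 to 30070 in the rest. The sums for mt-Co3 were steadier, at 78260, 56840, 70170 and 74320 in the control mice and at 76100, 55350, 61160 and 70110 in the exposed mice. In the Kir2.1 experiment Gm28661, Gm28437, Gm10925, Gm10222 and Gm28439 were listed at 0 in all 6 mice, and each mitochondrial gene held at least 87.1% of the sum with its copies.

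**Figure D5:**
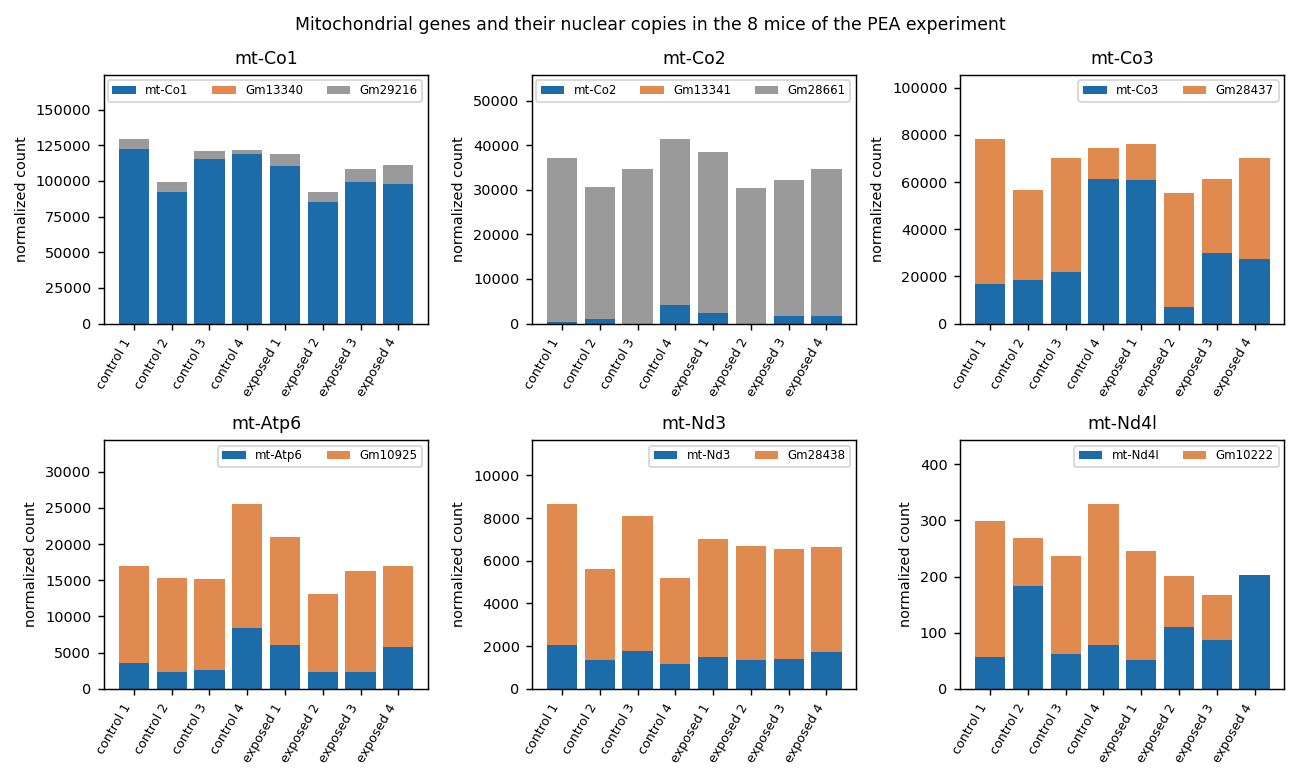
Normalized counts (vertical axis) of 6 mitochondrial genes (blue) and their nuclear copies (orange and grey) stacked for each of the 8 mice of the PEA experiment. The height of a bar is the sum of gene and copies. For mt-Co2 almost all counts were given to Gm28661, and for mt-Co3 the division changed from mouse to mouse while the sum stayed between 55350 and 78260.

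With gene and copies summed, no mitochondrial gene passed the adjusted threshold in the PEA comparison. The 13 genes and their copies held 2.49%, 2.15%, 2.32% and 2.69% of the normalized counts in the control mice and 2.61%, 1.94%, 2.18% and 2.26% in the exposed mice, and the groups overlapped (2.41% ± 0.231 and 2.25% ± 0.277, SD, n = 4 each). The summed log2 fold changes were -0.08 (SE 0.12) for mt-Co2, -0.09 (SE 0.14) for mt-Co3, -0.13 (SE 0.13) for mt-Co1, -0.10 (SE 0.19) for mt-Atp6 and 0.00 (SE 0.16) for mt-Nd3. Genes with few or no shared 31-mers gave -0.13 (SE 0.11) for mt-Nd1, -0.15 (SE 0.11) for mt-Atp8 and -0.19 (SE 0.18) for mt-Cytb. For mt-Nd6, the only member encoded on the light strand, it was 0.12 (SE 0.30) at values of 87.8 to 225.

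The lowest log2 fold changes among mitochondrial members were those of complex I subunits. For mt-Nd4 the control mice were at 4663, 6084, 4997 and 7963 and the exposed mice at 4781, 3823, 3783 and 4168. Control mouse 4 was highest and exposed mouse 1 overlapped with the control mice (fold change of -0.49 on the log2 scale, SE 0.16, limma adjusted p = 0.213 with Benjamini-Hochberg adjustment). For mt-Nd5 they were at 2949, 4266, 3203 and 6655, and at 3086, 2382, 2741 and 2874 (fold change of -0.55 on the log2 scale, SE 0.22, limma adjusted p = 0.293 with Benjamini-Hochberg adjustment), and for mt-Nd2 the log2 fold change was -0.42 (SE 0.16, limma adjusted p = 0.279 with Benjamini-Hochberg adjustment). These were the 3 of 13 mitochondrial genes that were lower at an unadjusted p under 0.05, where 6.04% of all genes were, and with copies summed there were 4 (mt-Nd4l in addition), where 6.06% were. For mt-Nd4l the gene alone gave 0.25 (SE 0.44), and the sum with Gm10222 gave -0.47 (SE 0.15, limma adjusted p = 0.202 with Benjamini-Hochberg adjustment). Without control mouse 4 the log2 fold changes of mt-Nd4, mt-Nd5 and mt-Nd2 were -0.34, -0.31 and -0.27. After GC adjustment they were -0.30, -0.36 and -0.23, and 10 of the 13 mitochondrial genes, whose GC content is 31.9% to 41.1%, then had a value above 0 where 3 had one before, so no direction can be given for the group.

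Genes around the respiratory chain were counted in the same way. In the Kir2.1 comparison no gene passed the adjusted threshold among 13 assembly factors of complex I, 23 of complexes III and IV, 7 of complexes II and V, 16 citric acid cycle genes, 17 glycolysis genes, 14 genes of mitochondrial DNA maintenance and expression, 9 regulators of respiratory genes, 9 tested carriers and porins, 7 tested subunits outside the symbol rule and 78 mitochondrial ribosomal proteins. Their medians lay between -0.13 (glycolysis, 14 of 17 genes below 0) and 0.04. In the PEA comparison none of these lists had a called gene either, with 8 tested carriers and porins and 6 tested subunits outside the rule, and medians lay between -0.12 (regulators) and 0.14 (mitochondrial DNA maintenance and expression). At an unadjusted p under 0.05, where 8.93% of all genes were higher and 6.04% lower, the PEA comparison had 4 of 17 glycolysis genes higher (23.5%), 4 of 78 mitochondrial ribosomal proteins (5.13%), 2 of 13 assembly factors of complex I (and 2 lower), 1 of 23 of complexes III and IV, 1 of 16 citric acid cycle genes (and 1 lower) and 1 of 14 genes of mitochondrial DNA maintenance and expression. The other lists of the respiratory chain had 0 in either direction. Of 79 cytosolic ribosomal protein genes, 19 were higher (24.1%) and 2 lower, beside 16 and 2 of the 77 nuclear members. In the Kir2.1 comparison, where 4.93% of all genes were higher, 11 of 80 cytosolic ribosomal protein genes were (13.8%) and none lower, and in the scaling as deposited all 80 had a log2 fold change above 0 (median 0.14), beside 42 of the 77 nuclear members. None of the cytosolic ribosomal protein genes passed the adjusted threshold in either experiment.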

How the data were processed

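Processed tables of 14 mice were used. The authors made libraries from poly-A RNA, unstranded (Kir2.1), or rRNA-depleted RNA, stranded (PEA), estimated transcript counts with Salmon 1.3.0 against an Ensembl index of mouse build GRCm38, summed them per gene, and divided them by DESeq2 1.30.0 size factors. The deposited values are thus a normalized signal per gene (normalized counts). Their sums (33049111 to 34198478 and 11476120 to 12467331 per mouse) follow normalization, so depth is unknown and count tests could not be run. The methods give a reverse-stranded Salmon setting for all samples, including the unstranded Kir2.1 libraries. Without strand, reads of mt-Nd6 cannot be told from those of the opposite strand.

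Genes averaging 10 or more in an experiment were tested with limma 3.58.1 in R 4.3.3 (trend, log2 of value + 1, Benjamini-Hochberg, threshold 0.05), a scale that understates changes of low genes. P-values measure the spread between pups within each experiment. The sample labels name no litter or cage. The study's methods place the odor vial in the home cage, so exposed pups may share a cage. Effects of exposure and of cage or litter cannot be told apart. Transcript length, GC content and shared 31-mers came from GENCODE annotation on GRCm38, with 1 reference transcript per gene for length and GC content, and 2 members were found under an older symbol. Python 3.11.15, numpy 2.4.6, pandas 2.3.3 and matplotlib 3.10.9 were used otherwise. Scripts were tested on simulated data. Members and gene lists were chosen with earlier results of these data known. Genes named by rule were those called, all mitochondrial members, the 5 highest and 5 lowest nuclear members without overlap, 10 listed nuclear subunits (2 per complex) and isoforms, and others are named as chosen after their values were seen.

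Alternatives were pseudocounts of 0.5 and 5, no filter, a filter at 50, no trend, quantile normalization, median centring, rescaling without mitochondrial genes, replicate block, vomeronasal and Xist covariates, each mouse left out and a threshold of 0.10. GC adjustment, summing of copies, and leaving out PEA control mouse 4 and exposed mouse 1 together were chosen after seeing the data.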

Additional observations from a re-analysis of the deposited data

Results flagged for a closer look

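In the PEA experiment, 88 groups of 4 values were checked for a mouse far from the others of its group (Dixon's test at the 95% level), and 7 were flagged, where chance flags about 1 in 20. Control mouse 4 was at 61280 for mt-Co3, against 16880 to 21820 in the other control mice. PEA exposed mouse 1 was flagged for 4 genes. It was at 712 for Atp5g1 (others 537 to 543), at 608 for Atp5g2 (others 1375 to 1525), at 846 for Uqcrfs1 (others 1224 to 1301) and at 2697 for mt-Nd2 (others 2002 to 2070). Control mouse 1 was at 12.7 for Cox8b, against 21.4 to 23 in the other control mice, and control mouse 3 was at 535 for Ndufv3, against 614 to 631. The cause of these values was not tested.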

How the results depend on the processing

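Under the alternatives run, no nuclear or mitochondrial member was called in the Kir2.1 experiment, no mitochondrial member in the PEA experiment, and the median log2 fold changes of the 4 groups moved by less than the spread between mice. The 1 nuclear member called in the PEA experiment (Ndufa11) became 0 with the Xist covariate, without a trend, with the vomeronasal covariate and with the replicate block. With each mouse left out the count was 0 to 2, at a threshold of 0.10 it was 3, and with PEA control mouse 4 and PEA exposed mouse 1 both left out it was 3 (Ndufa11, Cox7b and Uqcr10). With both left out, exposure and vomeronasal receptor level cannot be told apart. The cause of these changes in the count was not tested. Ndufa11 kept a log2 fold change between 0.86 and 1.36. With the replicate block it was 1.18 with a limma adjusted p of 0.0676 (Benjamini-Hochberg). The labels do not say whether same-numbered mice share more than a number. Their deviations correlated at -0.06 to 0.16 in the Kir2.1 experiment and at -0.05 to 0.13 in the PEA experiment. Such correlations cannot show whether these mice share a litter or a batch. Over all genes, 31 were called in the PEA experiment, against 52 with no filter, 19 with the vomeronasal covariate and 152 without both mice, and 70 in the Kir2.1 experiment, against 9 with the block and 20 without a trend. Among named members that were not called, 20 in the Kir2.1 and 22 in the PEA experiment changed sign under at least 1 alternative. Depth is unknown, and intervals of nuclear members (median half-width 0.22 and 0.34 log2 units) set the size of difference that could be seen.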
